A study of Homo sapiens with 6 samples.

Results

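The fatty acid elongase and desaturase genes of RKO cells were examined in libraries with lowered TRIM21. RKO is a human colon carcinoma cell line, poorly differentiated and long established in culture. The set held 10 genes of the 28278 rows in the deposited tables: the elongases ELOVL1, ELOVL2, ELOVL4, ELOVL5, ELOVL6 and ELOVL7, and the desaturases SCD, FADS1, FADS2 and FADS3. Each was found by its exact symbol. The family was picked from known enzymes, but it was selected on results of the same shTRIM21 and shControl libraries, in which ELOVL6 was already known to be higher. The members' differences between the groups are therefore given as a description, with no p-value, and support nothing further.

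The study compared 3 libraries of RKO cells stably carrying a short hairpin RNA against TRIM21, an E3 ubiquitin ligase (labelled TRIM21 knockdown), with 3 libraries of RKO cells carrying a scrambled hairpin (labelled WT). Both hairpins were delivered by lentivirus, and both groups were kept in puromycin at 5 µg/ml for 2 to 3 weeks, starting 36 h after infection. Total RNA was sequenced after ribosomal RNA depletion. The labels call the samples biological replicates without naming separate infections or hairpins, so p-values of other genes measure the spread between these libraries, which may be technical.

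Libraries held 33499827 to 44466137 counts, and 27808151 to 29100459 once ribosomal RNA rows were set aside. Those rows took 31.0% and 36.9% of shControl replicates 1 and 3 and 14.7% to 23.5% of the other libraries. TRIM21 was lower in the libraries labelled as its knockdown, at 7.58 ± 0.574 against 11.03 ± 1.40 CPM, counts scaled to library size with TMM factors (SD, n = 3 each). The log2 fold change was -0.54 (SE 0.12), with an edgeR adjusted p = 0.00424. Over the alternatives the adjusted p of TRIM21 ran from 0.000399 to 0.197, and its call was lost with library sizes alone. The epithelial markers EPCAM, CDH1, KRT8, KRT18, KRT19 and CLDN4 were present in every library, with a summed level of 4778 to 5012 CPM in shTRIM21 and 6131 to 6773 CPM in shControl. KRT8, KRT18 and KRT19 made up most of that sum and were lower in every shTRIM21 library. CDH1 went the other way, at 59.1 to 67.4 CPM in shTRIM21 and 39.3 to 43.6 CPM in shControl, and the groups overlapped for EPCAM and CLDN4. Of 5 adipocyte markers, the summed level was at most 0.291 CPM in shTRIM21 and 0.272 CPM in shControl, and ADIPOQ was listed at 0. Of 5 hepatocyte markers APOB and TTR were listed at 0, and the sum ran from 3.09 to 3.46 CPM in shTRIM21 and from 3.24 to 5.19 CPM in shControl. Fibroblast markers summed to 10.5 to 11.02 CPM in shTRIM21 and 6.15 to 9.19 CPM in shControl, nearly all of it COL1A1, with DCN and LUM listed at 0. Leukocyte markers summed to 6.18 to 6.85 CPM in shTRIM21 and 7.34 to 8.69 CPM in shControl, with CD3E listed at 0, and endothelial markers summed to at most 0.773 CPM in any library, with CDH5 listed at 0. Whether the epithelial and fibroblast markers bear on the results was not tested.

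Elongases and desaturases shape the acyl chains that fatty acid synthase releases, mainly as palmitate. An ELOVL enzyme in the endoplasmic reticulum catalyses the condensation that opens each elongation cycle, adding carbons from malonyl-CoA, and a ketoreductase, a dehydratase and an enoyl reductase complete the cycle. SCD and the FADS enzymes place double bonds into the chain with electrons passed on through cytochrome b5. In growing epithelial and tumour cells the balance of these enzymes is known to set chain length and saturation of membrane lipids, and several of the genes are known targets of the transcription factor SREBP-1.

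ELOVL6, which elongates palmitoyl-CoA to stearoyl-CoA, was 2.01-fold higher in shTRIM21, while SCD, which then desaturates stearoyl-CoA to oleoyl-CoA, and FADS2, which opens the polyunsaturated route, were lower. Across all genes tested, 20.8% were called (edgeR's quasi-likelihood test with an adjusted p, after Benjamini and Hochberg, under 0.05), 9.77% higher and 11.0% lower in shTRIM21. Of the 10 members 8 passed the filter on low counts and were tested, and of these 1 was called higher and 2 lower. Because the set was chosen with this contrast known, nothing is read from that count. The groups did not overlap for 3 of the 8 tested members, ELOVL6, SCD and FADS2, beside 37.7% of all tested genes. The median log2 fold change of the 8 was -0.048, beside 0.0054 over all tested genes. In bulk RNA such as this, fewer cells with a transcript and less of it per cell cannot be told apart.

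**Figure D1:**
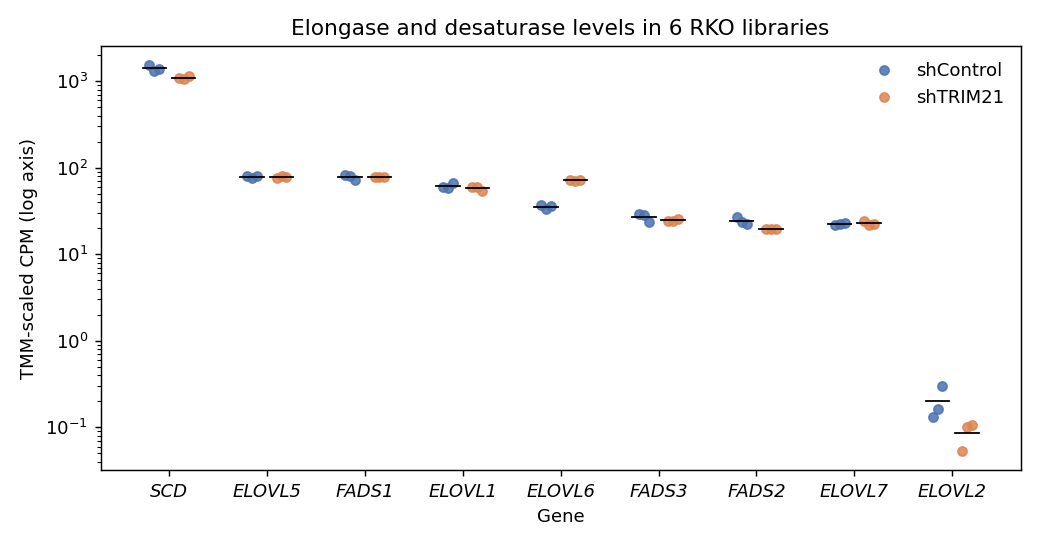
TMM-scaled CPM (log axis) of 9 elongase and desaturase genes in each library, with points for the 3 libraries of each group and a bar at their mean; ELOVL4, listed at 0 throughout, is not drawn. ELOVL6 has a mean of 35.6 CPM in shControl and 71.6 CPM in shTRIM21 with no overlap, while SCD and FADS2 sit lower in shTRIM21.

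ELOVL6 had 1413, 1239 and 1291 counts in shControl and 2721, 2771 and 2711 in shTRIM21. Scaled, these were 37.4, 33.7 and 35.6 CPM in shControl and 72.5, 70.7 and 71.6 CPM in shTRIM21. Every shTRIM21 library lay well above every shControl library, and the 3 libraries within a group differed by only a few CPM. The log2 fold change was 1.01 (SE 0.060, 95% interval 0.88 to 1.14), a 2.01-fold difference, and 230 of the 15131 tested genes, ELOVL6 included, had one as high. It was called under all 14 alternatives, with log2 fold changes from 0.97 to 1.23. ELOVL6 lies on chromosome 4 at 110045846 to 110199202 (GRCh38.p14, minus strand), and the annotated 7SL pseudogene RN7SL275P overlaps it by 335 bases.

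The other elongases differed far less. ELOVL5, which extends polyunsaturated chains, was at 80.5, 76.4 and 79.6 CPM in shControl and 76.6, 80.1 and 78.9 CPM in shTRIM21. The 2 groups overlapped almost completely, and the log2 fold change was -0.0059 (95% interval -0.12 to 0.11). ELOVL1, which makes saturated and monounsaturated very long chains used in sphingolipids, was at 61.8 ± 3.81 CPM in shControl and 58.2 ± 3.23 CPM in shTRIM21 (SD, n = 3 each; log2 fold change -0.087, SE 0.065). ELOVL7, a further elongase of long chains, was at 22.5 ± 0.652 and 22.8 ± 1.504 CPM (SD, n = 3 each; log2 fold change 0.021, SE 0.077). None of these 3 was called, and their 95% intervals lay between -0.22 and 0.18 on the log2 scale. With library sizes alone, which moved the median of all tested genes to 0.22, the values of ELOVL1, ELOVL5 and ELOVL7 were 0.13, 0.21 and 0.23, and remained uncalled.

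ELOVL2, which extends polyunsaturated chains toward docosahexaenoic acid, had only 5, 6 and 11 counts in shControl and 2, 4 and 4 in shTRIM21, too few to pass the filter. ELOVL4, known for the very long chains of retina and skin, was listed at 0 in all libraries. Of the rows, 7790 were at 0 throughout, among them FBL, RPL7A and CANX, which nearly all human cells use. A listed 0 therefore does not show that a transcript was missing. Both genes lie on chromosome 6, as ELOVL5 does.

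Among the desaturases SCD was the most abundant. It had 57663, 47716 and 50313 counts in shControl and 40392, 42012 and 42992 in shTRIM21. This made 1528, 1298 and 1389 CPM in shControl and 1076, 1073 and 1136 CPM in shTRIM21. All 3 shTRIM21 libraries lay below all 3 shControl libraries, and the shControl libraries were the more spread, shControl replicate 1 being the highest. The log2 fold change was -0.36 (SE 0.067, 95% interval -0.50 to -0.22), which is 22.1% lower. SCD kept its call under 13 of 14 alternatives and lost it with library sizes alone, where the log2 fold change was -0.14. In shControl 46 of all 28278 rows, SCD included, had a mean CPM as high as that of SCD. SCD lies on chromosome 10 at 100347233 to 100364826 (plus strand), and 0 annotated genes overlap it.

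FADS2, which introduces the first double bond on the way from linoleic and alpha-linolenic acid to longer polyunsaturated chains, was at 26.6, 23.7 and 22.2 CPM in shControl. In shTRIM21 it was at 19.6, 19.6 and 19.8 CPM. The groups did not overlap, but the lowest shControl library was close to the shTRIM21 libraries. The log2 fold change was -0.30 (SE 0.082, 95% interval -0.47 to -0.13), which is 18.8% lower. This call was lost with library sizes alone (-0.089), without shTRIM21 replicate 2 (-0.30) and without shControl replicate 1 (-0.23). Without shTRIM21 replicate 2 fewer genes were called in all (1844, against 3146), so that loss does not show that the call rested on that library. Without shControl replicates 1 and 3, which leaves 1 shControl library, the value was -0.28.

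FADS1, which converts dihomo-gamma-linolenic acid to arachidonic acid, was at 82.7, 79.4 and 71.6 CPM in shControl and 77.3, 77.6 and 77.4 CPM in shTRIM21. The shTRIM21 libraries fell inside the range of the shControl libraries, and the log2 fold change was -0.0084 (95% interval -0.14 to 0.12). FADS3, which desaturates sphingoid bases, was at 29.2, 28.7 and 23.8 CPM in shControl and 24.5, 24.5 and 25.5 CPM in shTRIM21, with a log2 fold change of -0.13 (95% interval -0.31 to 0.043). Neither was called. FADS1, FADS2 and FADS3 lie side by side on chromosome 11 within 92.6 kb. FADS1 (61799627 to 61817003, minus strand) and FADS2 (61816203 to 61867354, plus strand) share 801 bases on opposite strands. The use of strand in counting is not given in the sources used here, so reads from that stretch cannot be told apart. Unnamed loci also overlap FADS2, the longest overlap being 5953 bases. FADS3 (61873526 to 61892224, minus strand) begins 6171 bases beyond FADS2.

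**Figure D2:**
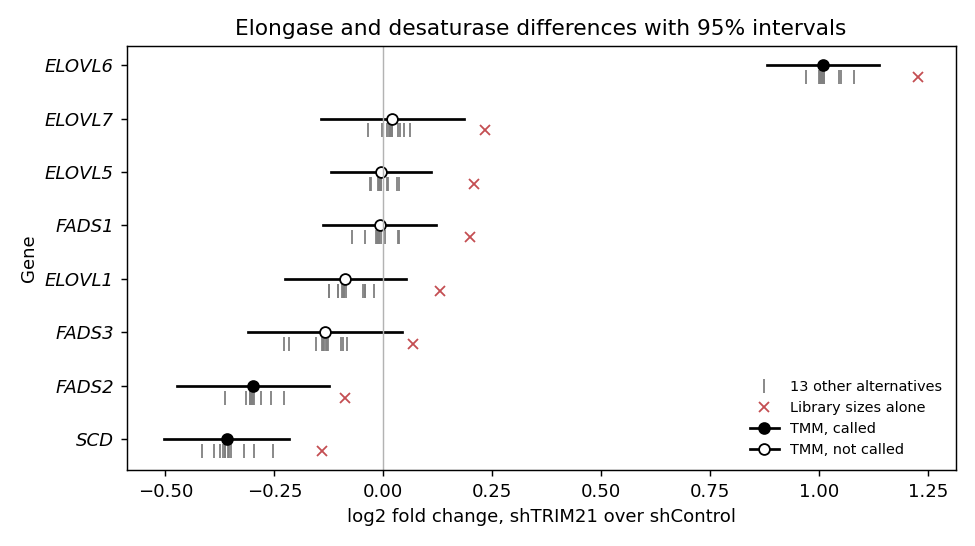
Log2 fold changes of the 8 tested members (circles, filled where called, with 95% intervals), with each alternative analysis as a tick and library sizes alone as a cross. ELOVL6 lies between 0.97 and 1.23 over the alternatives, SCD and FADS2 lie below 0 in each, and library sizes alone move every drawn gene upward.

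Ratios of counts within a library do not depend on the scaling between libraries. ELOVL6 had 2.45, 2.60 and 2.57 counts per 100 SCD counts in shControl and 6.74, 6.60 and 6.31 in shTRIM21. This ratio kept the groups far apart. Against ELOVL5, ELOVL6 had 44.1 to 46.5 counts per 100 in shControl and 88.3 to 94.7 in shTRIM21. SCD had 102 to 106 counts per 100 counts of the fatty acid synthase gene FASN in shControl and 80.99 to 84.6 in shTRIM21. Of all counts on ELOVL genes, ELOVL3 included, ELOVL6 took 16.8% to 18.1% in shControl and 29.4% to 30.6% in shTRIM21. The share of ELOVL5, the family's leading gene by counts in all 6 libraries, was 37.6% to 38.9% in shControl and 31.7% to 33.6% in shTRIM21. SCD took 88.03% to 89.7% of the counts on SCD, SCD5 and FADS genes in shControl and 86.2% to 86.8% in shTRIM21.

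To compare levels between genes, CPM was divided by the length of each gene's exons in GENCODE release 29. SCD led with 262 ± 21.6 CPM per kilobase in shControl (SD, n = 3). ELOVL1 followed with 24.6 ± 1.52 and ELOVL5 with 20.7 ± 0.563, and their ranges over the shControl libraries did not overlap. FADS1 was the next member at 7.61 ± 0.555 CPM per kilobase, below the paralog SCD5 at 10.5 ± 0.760. ELOVL7 at 4.91 ± 0.142, ELOVL6 at 4.88 ± 0.255 and FADS3 at 4.34 ± 0.471 followed. The ranges of ELOVL7 and ELOVL6 overlapped, as did those of ELOVL6 and FADS3, while ELOVL7 lay above FADS3 in every shControl library. FADS2 was at 2.19 ± 0.202 and ELOVL2 at 0.04998 ± 0.0228 CPM per kilobase. In shTRIM21 ELOVL6 was at 9.82 ± 0.122 CPM per kilobase, above FADS1 at 7.57 ± 0.0120 and ELOVL7 at 4.99 ± 0.329. With the longest coding transcript as the length, SCD, ELOVL1 and ELOVL5 kept the top places, but FADS1 (17.1 CPM per kilobase in shTRIM21) and FADS3 (13.96) stood above ELOVL6 (11.1). The place of ELOVL6 among the FADS genes thus depends on the length used.

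**Figure D3:**
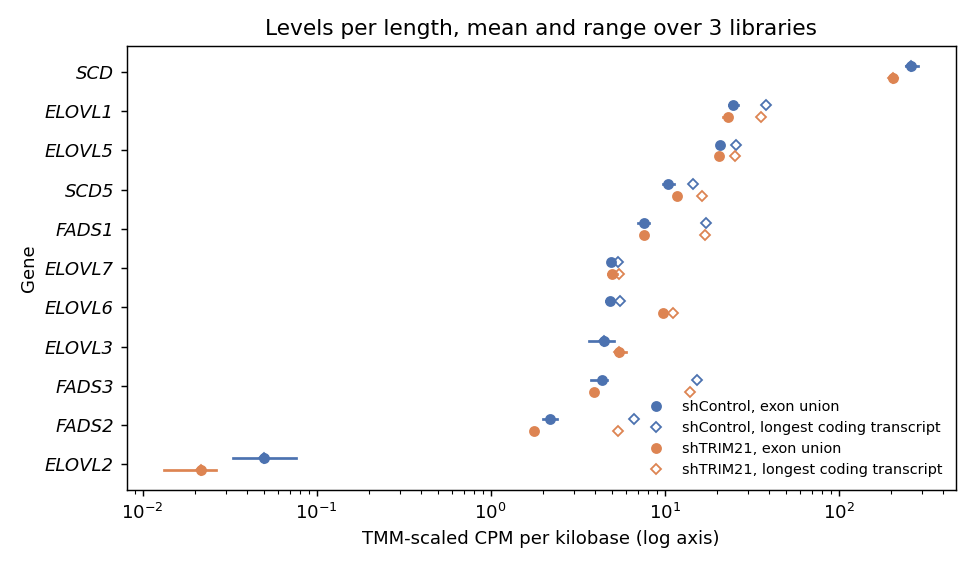
TMM-scaled CPM per kilobase (log axis) for 9 members and the paralogs SCD5 and ELOVL3, as means with ranges over 3 libraries per group (circles, exon union) and as means by the longest coding transcript (diamonds). SCD, at 262 in shControl, lies far above ELOVL1, at 24.6, by exon union, and the place of the FADS genes moves with the length used.

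The promoter windows of the 3 called members run from 250 bases before to 50 after an annotated start (RefSeq, GRCh38.p14). They are shown because these genes moved in different directions. For ELOVL6 and FADS2 the start used lies inside the gene extent given above, not at its outer end. Capitals mark the NF-Y box (CCAAT) and the Sp1 box (GGGCGG) on either strand. Adjoining boxes may merge.
SCD, chr10:100346983-100347282, plus strand: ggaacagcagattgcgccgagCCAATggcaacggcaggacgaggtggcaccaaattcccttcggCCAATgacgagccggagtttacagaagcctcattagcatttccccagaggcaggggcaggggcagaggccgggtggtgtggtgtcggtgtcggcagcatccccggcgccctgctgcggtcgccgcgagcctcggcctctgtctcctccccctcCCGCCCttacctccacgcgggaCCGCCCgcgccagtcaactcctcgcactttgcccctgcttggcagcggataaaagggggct
FADS2, chr11:61816154-61816453, plus strand: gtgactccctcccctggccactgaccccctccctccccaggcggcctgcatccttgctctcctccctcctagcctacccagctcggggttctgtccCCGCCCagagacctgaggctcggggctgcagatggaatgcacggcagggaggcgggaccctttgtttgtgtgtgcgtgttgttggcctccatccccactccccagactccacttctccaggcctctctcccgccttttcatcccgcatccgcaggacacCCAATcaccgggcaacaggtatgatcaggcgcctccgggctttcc
ELOVL6, chr4:110198566-110198865, minus strand: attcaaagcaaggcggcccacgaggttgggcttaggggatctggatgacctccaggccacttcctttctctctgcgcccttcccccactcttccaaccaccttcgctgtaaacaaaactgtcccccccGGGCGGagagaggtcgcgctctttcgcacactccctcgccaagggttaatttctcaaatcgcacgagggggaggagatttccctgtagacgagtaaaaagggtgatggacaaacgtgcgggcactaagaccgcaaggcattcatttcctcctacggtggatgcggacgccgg

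All 10 members matched a promoter in the table, and FADS2 has a window at each of 2 annotated starts. Positions are counted from the annotated start of each window. SCD held CCAAT at -229 and -186 and the reverse complement of the Sp1 box at -33 and -11. The FADS2 window shown held CCAAT at 6 and the Sp1 box at -154. Its other window, chr11:61815953-61816252, is the one at the outer start of the gene, and it held neither. ELOVL6 held 1 Sp1 box at -122 and no CCAAT. Over the family, CCAAT was found in 6 of 10 members (34.6% of all 35116 promoter windows) and the Sp1 box in 9 of 10 (44.95% of all windows). FADS2 enters both counts only through the window shown. The E-box CACGTG was found in ELOVL4 and ELOVL5 (7.26% of all windows). The sterol regulatory element word TCACNCCAC (1.13% of all windows) and the TATA word TATAAA (11.5%) were found in 0 of 10. A missing word says only that these letters are not in this window. The uncalled ELOVL1, ELOVL5 and FADS3 also held CCAAT, so the box was not limited to the called members.

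The genes with profiles most like those of ELOVL6 and SCD were taken as the smallest Euclidean distance of mean-centred log2(CPM + 0.5) over the 6 libraries, among 11096 other genes averaging 5 CPM or more. For ELOVL6 these were the enolase gene ENO2 (distance 0.055, log2 fold change 1.02), SYNPO (0.155, 0.96) and the septin gene SEPTIN2 (0.157, 0.89). For SCD they were the integrin gene ITGA5 (0.091, -0.32), the urokinase receptor gene PLAUR (0.093, -0.37) and the protease gene FURIN (0.103, -0.31). The distance includes the difference between the groups, so a similar log2 fold change is built into this choice.

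Other genes of the pathway were taken from 9 lists with 118 genes, of which 106 were tested. Of these 17 were called higher and 17 lower, 16.0% in each direction beside 9.77% higher and 11.0% lower over all tested genes. The lists were written with earlier results of these data known, so these shares and those of each list below are a description. Their median log2 fold change is given for the same 106 genes. For those genes together it was 0.025. Around the elongases, 5 partners of the elongation cycle were tested, of which 1 rose and 1 fell (20.0% in each direction). Their median of -0.061 was 0.16 with library sizes alone. The ketoreductase gene HSD17B12 was at 69.8 ± 2.42 CPM in shControl and 70.4 ± 3.99 CPM in shTRIM21 (SD, n = 3 each; log2 fold change 0.012, edgeR adjusted p = 0.908). The enoyl reductase gene TECR had a log2 fold change of -0.061 (edgeR adjusted p = 0.516). The dehydratase gene HACD1, at 8.89 CPM in shControl, fell by 0.66 on the log2 scale (SE 0.16, edgeR adjusted p = 0.00728), and its more abundant paralog HACD3 rose by 0.16 (SE 0.050, edgeR adjusted p = 0.0383). The HACD1 call was lost with library sizes alone and the HACD3 call under 10 of 14 alternatives.

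The remaining paralogs were not called. ELOVL3 was at 6.13 CPM in shControl and 7.53 CPM in shTRIM21 (log2 fold change 0.30, SE 0.14, edgeR adjusted p = 0.139), and the SCD paralog SCD5 was at 44.95 and 50.6 CPM (0.17, SE 0.064, edgeR adjusted p = 0.0744). FADS6 was listed at 0. Among 9 tested genes named for cytochrome b5 or its reductases, not all of them shown to serve desaturases, 2 rose and 1 fell. Their median was -0.023 (0.18 with library sizes alone). CYB5A and CYB5B, the cytochromes, rose by 0.29 (SE 0.093) and 0.16 (SE 0.052), and the reductase gene CYB5R3 fell by 0.18 (SE 0.056; edgeR adjusted p = 0.0402, 0.0384 and 0.0358). Each of these calls was lost under 8 or more of 14 alternatives, and CYB5R3 was at 0.042 with library sizes alone.

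Upstream, the genes that supply palmitate gave a mixed picture. Of 10 tested genes of fatty acid synthesis, 1 rose and 1 fell, with a median of -0.052 that was 0.16 with library sizes alone. FASN was at 1346 ± 118 CPM in shControl and 1314 ± 34.6 CPM in shTRIM21 (SD, n = 3 each; log2 fold change -0.035, SE 0.068, edgeR adjusted p = 0.761). ACACA, which encodes an acetyl-CoA carboxylase, was also uncalled (-0.12, edgeR adjusted p = 0.167). The mitochondrial citrate carrier gene SLC25A1 rose by 0.51 (SE 0.056, edgeR adjusted p = 1.57e-05), and the acetyl-CoA synthetase gene ACSS2 fell by 0.34 (SE 0.078, edgeR adjusted p = 0.00604). SLC25A1 was called under all 14 alternatives, and the ACSS2 call was lost with library sizes alone and when shControl replicates 1 and 3 were left out.

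Of 17 regulators of these genes 0 rose and 7 fell (41.2%, beside 11.0% of all tested genes), with a median log2 fold change of -0.16. That count stayed at 7 with RLE factors, DESeq2, no ribosomal RNA rows or no filter, and varied elsewhere. It was 5 (29.4%) without shControl replicate 2 or 3, and 3 without shTRIM21 replicate 3 or with the replicate block. It was 2 without shControl replicate 1, and 1 with upper-quartile factors or without shTRIM21 replicate 1 or 2. Without shTRIM21 replicates 1 and 2 in turn the median was still -0.14 and -0.16, and fewer genes were called in all (2525 and 1844, against 3146). Without shControl replicates 1 and 3 the median was -0.043. With library sizes alone 0 fell, and the median was 0.057. The number that rose was 1 with library sizes alone, upper-quartile factors, no filter, DESeq2 or the replicate block. It was also 1 without shControl replicate 1. A count of 3 called lower is 17.6% of the 17 regulators. Of all tested genes, 8.84% were called lower without shTRIM21 replicate 3 and 10.05% with the replicate block. Without shControl replicate 1 the count of 2 is 11.8%, beside 8.98% of all tested genes. A count of 1 is 5.88%. The share of all tested genes was higher, at 7.67% with upper-quartile factors and 9.002% and 6.55% without shTRIM21 replicates 1 and 2 in turn. The oxysterol receptor gene NR1H2 fell by 0.45 (SE 0.067, edgeR adjusted p = 0.000262) and kept its call except with library sizes alone. SREBF1, which encodes SREBP-1, was at 195 ± 17.9 CPM in shControl and 171 ± 3.72 CPM in shTRIM21 (SD, n = 3 each; log2 fold change -0.19, SE 0.062, edgeR adjusted p = 0.0413). INSIG1, which retains SREBP in the endoplasmic reticulum, was at -0.21 (SE 0.070, edgeR adjusted p = 0.0438). RXRB and MLX were at -0.23 (SE 0.071, edgeR adjusted p = 0.0295) and -0.17 (SE 0.055, edgeR adjusted p = 0.0408). The calls of SREBF1, INSIG1, RXRB and MLX were each lost under at least 7 of 14 alternatives. SREBF2 was not called (-0.16, SE 0.064, edgeR adjusted p = 0.091).

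**Figure D4:**
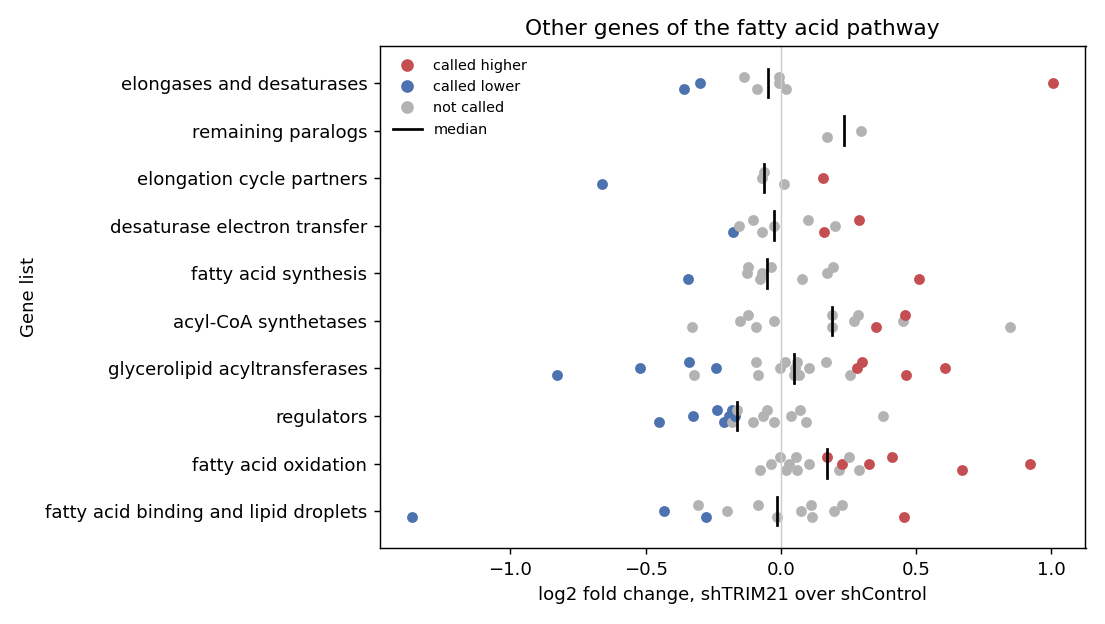
Log2 fold changes of the 8 tested members and of 106 other pathway genes in 9 lists, coloured by call, with each list's median as a bar. Among regulators the 7 called genes are all lower, among oxidation genes the 6 called genes are all higher, and ELOVL6 is the farthest to the right.

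Downstream, enzymes that activate and use the acyl chains moved in both directions. Of 13 acyl-CoA synthetase genes 2 rose and 0 fell, with a median of 0.19: ACSL5 by 0.35 (SE 0.056, edgeR adjusted p = 0.000523) and SLC27A3 by 0.46 (SE 0.10, edgeR adjusted p = 0.00486). Both were called under all 14 alternatives. Of 20 glycerolipid acyltransferase and phosphatidate phosphatase genes 4 rose and 4 fell, with a median of 0.051 (0.27 with library sizes alone). The lysophosphatidylcholine acyltransferase gene LPCAT1 rose by 0.61 (SE 0.056, edgeR adjusted p = 3.15e-06). Genes for the enzymes that start glycerolipid synthesis split. GPAM rose by 0.46 (SE 0.070, edgeR adjusted p = 0.000331), while GPAT3 fell by 0.83 (SE 0.075, edgeR adjusted p = 2.35e-06) and GPAT2 by 0.34 (SE 0.066, edgeR adjusted p = 0.00206). GPAT4, at 63.1 CPM in shControl and 66.2 CPM in shTRIM21, was not called (log2 fold change 0.068, edgeR adjusted p = 0.470). The GPAT2 call was lost by library sizes alone and when shControl replicates 1 and 3 were left out.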

How the data were processed

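Total RNA of 6 RKO libraries, 3 shTRIM21 and 3 shControl, was sequenced after ribosomal RNA depletion, per the labels' protocols; groups and replicate numbers are from the titles. The deposited values are unnormalized counts of reads, 1 row for each gene symbol. The submitters' processing notes list TopHat2, limma 3.52.2, edgeR 3.38.1 and, as build, hg38, with no step assigned to any. For counter, annotation and strandedness: not given in the sources used here. A source label names mouse tissue, but organism, line and symbols are human.

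With R 4.3.3 and edgeR 4.0.16, genes were filtered with filterByExpr (minimum count 10, minimum total 15), scaled with TMM and compared with the quasi-likelihood F test over all 15131 genes left, with no other term. Standard errors are the size of the log2 fold change over the square root of F. The test was checked on counts simulated from its own fitted model. Ribosomal RNA shares were alike in all simulated libraries, so scaling under unequal shares was not checked. Alternatives were other scalings, no ribosomal RNA rows, no filter, DESeq2 1.42.0, a replicate block and left-out libraries. Members, lists and named genes (all members, up to 4 called genes per list with the smallest p, 10 fixed genes, TRIM21 and the nearest profiles) were chosen with earlier results of these data known. Protein sequences were not used here. Of the symbols, 26998 matched the RefSeq table.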

Additional observations from a re-analysis of the deposited data

How the results depend on the processing

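Over 14 alternatives ELOVL6 was called higher each time, and it was the only member called higher. With library sizes alone 0 members were called lower, 1969 genes were called in all (93.0% of them higher, against 47.0% with TMM) and 2 pathway genes fell. With upper-quartile factors 62.1% of calls were higher and 9 pathway genes fell. Without shControl replicates 1 and 3, 1 member and 6 pathway genes were called lower and 1958 genes were called in all. Leaving out each library in turn gave 1 to 2 lower members (1 without shTRIM21 replicate 2 or shControl replicate 1), 8 to 15 higher and 9 to 16 lower pathway genes, and 1844 (without shTRIM21 replicate 2) to 2592 called genes.

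Signs of uncalled values turned. With library sizes alone the log2 fold changes were 0.13 for ELOVL1, 0.21 for ELOVL5, 0.20 for FADS1, 0.069 for FADS3, 0.057 for SREBF2, 0.19 for FASN, 0.084 for ACACA and 0.16 for TECR. The called CYB5R3, MLX, SREBF1 and INSIG1 also turned there, to 0.042, 0.042, 0.018 and 0.0042, uncalled. With upper-quartile factors ELOVL5, FADS1 and FASN were at 0.035, 0.033 and 0.0056. Without shControl replicates 1 and 3 ELOVL5, FASN and TECR were at 0.032, 0.097 and 0.064. Without shTRIM21 replicate 1 ELOVL5, ELOVL7 and HSD17B12 were at 0.010, -0.036 and -0.035. Without shControl replicate 1 ELOVL5, ELOVL7, FADS1 and FASN were at 0.0077, -0.0029, 0.035 and 0.023. FADS1 was at 0.0035 without shControl replicate 2 and HSD17B12 at -0.014 without shControl replicate 3. Leaving out each library in turn, ELOVL5 ran from -0.030 to 0.010, ELOVL7 from -0.036 to 0.049, FADS1 from -0.072 to 0.035, FASN from -0.10 to 0.023 and HSD17B12 from -0.035 to 0.045. The cause was not tested.

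Same-numbered libraries did not deviate together (correlations of -0.012, -0.012 and -0.074 over 15131 genes), so the numbers were not taken as pairs. With the replicate block 1 member was higher and 2 lower, 2905 genes were called, and 15 pathway genes rose and 14 fell. Counts for ELOVL2 were too few for a test.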

Other observations

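Of 17 tested genes of fatty acid oxidation 6 rose (35.3%, beside 9.77% of all tested genes) and 0 fell (beside 11.0%), with a median log2 fold change of 0.17 beside 0.0054 over all tested genes. Over the 14 alternatives 2 to 7 rose and 0 fell. The fewest, 11.8% of the list, were without shTRIM21 replicate 2, where 5.49% of all tested genes were called higher. The median ran from 0.075 to 0.38. ACAA2, a mitochondrial thiolase, rose by 0.67 (SE 0.12, edgeR adjusted p = 0.00129), the peroxisomal transporter gene ABCD3 by 0.41 (SE 0.060, edgeR adjusted p = 0.000226) and CPT1A, which admits acyl chains to mitochondria, by 0.23 (SE 0.054, edgeR adjusted p = 0.00757). CPT1C rose by 0.92 (SE 0.24, edgeR adjusted p = 0.0137) from a low level of 1.54 CPM. The CPT1A and CPT1C calls were lost without shTRIM21 replicate 2, and that of CPT1A also without shControl replicates 1 and 3.

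Among 13 tested genes of fatty acid binding and lipid droplets 1 rose and 3 fell, with a median of -0.014 (0.18 with library sizes alone). MGLL, the monoacylglycerol lipase gene, went from 17.9 ± 0.359 to 6.95 ± 0.212 CPM (SD, n = 3 each). It fell by 1.36 on the log2 scale (SE 0.090, edgeR adjusted p = 1.06e-07) and was called under all 14 alternatives. PLIN3, a lipid droplet coat gene, fell by 0.28 (SE 0.047, edgeR adjusted p = 0.000874), the hormone-sensitive lipase gene LIPE fell by 0.43 (SE 0.14, edgeR adjusted p = 0.0342) and HILPDA rose by 0.45 (SE 0.10, edgeR adjusted p = 0.00554). The PLIN3 call was lost with library sizes alone and the LIPE call under 7 of 14 alternatives.

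The 7-base word GTGTCAC, chosen with earlier results of these data known, was searched in the 3' UTR of each gene's longest coding transcript (GENCODE release 29). It occurred in 2 of the 10 members, ELOVL6 with 2 copies in 5492 bases and FADS1 with 1 copy in 2786 bases, and in 9.66% of 12960 tested genes. The ELOVL6 sites, shown because ELOVL6 was called and FADS1 was not, and the FADS1 site are printed with the word in capitals.
ELOVL6 at base 357 of the UTR: tatttactaaGTGTCACatttctctaa
ELOVL6 at base 3946 of the UTR: accacggtgtGTGTCACacaaccgagg
FADS1 at base 2318 of the UTR: tttgggtgtgGTGTCACcagcctgttt
Of the 1252 tested genes with the word 268 were called higher (21.4%) and 106 lower (8.47%). Genes without it were called higher in 9.33% and lower in 12.6%. These shares are over the 12960 tested genes with a UTR, while 9.77% and 11.0% are over all 15131 tested genes, a wider set. Since the word was chosen with results of these data known, these shares are a description. Genes with the word had a median log2 fold change of 0.055 against -0.0046 for genes without it. Their UTRs were longer, with a median of 3109 against 1135 bases, and the part of UTR length in this difference was not tested.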
